A study of Mus musculus with 8 samples.

Results

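The genes described here encode subunits of RNA polymerases I, II and III (Pol I, II and III) together with dedicated initiation factors of Pol I and Pol III. Members were the rows of the authors' comparison whose gene symbol begins with Polr1, Polr2 or Polr3 or is one of a fixed set of factor genes, which gave 47 of 14853 genes. They were grouped by role into 6 subunits of Pol I alone, 6 Pol I factors, 2 subunits common to Pol I and III, 5 subunits common to all polymerases, 7 subunits of Pol II alone, 10 subunits of Pol III alone, 10 Pol III factors and Polr2m, a Pol II-associated gene.

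Pol I transcribes the large ribosomal RNA precursor in the nucleolus, Pol II transcribes messenger RNAs and many small RNAs, and Pol III transcribes 5S ribosomal RNA, transfer RNAs and other short RNAs. Each enzyme has a pair of large subunits that form the catalytic centre, an assembly platform, and smaller subunits, some of which all of the enzymes hold in common. Pol I and Pol III supply the RNAs of the ribosome and of translation, so that their output is tied to growth in dividing cells such as spermatogonia.

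RNA was sequenced from undifferentiated spermatogonia, which hold the stem cells of spermatogenesis, of C57BL/6 mice aged 8 to 12 weeks. In 4 samples the genotype at Tert, the gene for the reverse transcriptase of telomerase, was CreER/flox, with a loxP-flanked allele that Cre can delete. In the other 4 samples it was CreER/+, with a normal allele in its place, and these served as controls. All 8 samples carried the tamoxifen-activated CreER at one Tert allele and the Cre-dependent red reporter Tdtomato at Rosa (lsl-Tdtomato/+). Both groups were given tamoxifen, and MCAM-high, KIT-negative, Tdtomato-positive cells were sorted on day 7. The controls therefore had a single intact Tert allele and are not wild type. Which stretch of Tert the loxP sites flank, and whether its deletion was measured, was not analysed here.

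A table of the authors' comparison supplied every value, with a log2 fold change and its standard error (SE) for each gene. Individual libraries could not be compared from it. The sign was taken from the table's name, so that positive values mean higher in the flox samples. A gene was called at an adjusted p under 0.05. The abundance of a gene is given as the mean normalized count over all libraries. In this bulk measurement, fewer cells of a type and less RNA per cell cannot be told apart. All 19 markers of undifferentiated spermatogonia were measured, with a median of 2279 mean counts and a median log2 fold change of -0.033 in the authors' deposited table. All 20 spermatid markers lay below 0 in the authors' deposited table, with a median of -1.06 and a median mean count of 273. Of these, 9 fell, and those of smallest p were Odf1, Txndc2, Spata18, Spem1, Tssk1 and Dnajb3. Of 9 spermatocyte markers, Piwil1 and Sycp2 fell, and of the undifferentiated ones Dazl rose. Of 4 markers of differentiating spermatogonia, 2 lay above 0 with a median of -0.027, and 0 were called. At an unadjusted p under 0.05 in the authors' deposited table, 2 of these 4 stood higher and 1 lower. Of the markers of Sertoli, Leydig, myoid, leukocyte, endothelial and erythroid cells, 19 of 31 were in the table, with median mean counts from 13.0 to 63.5 by cell type and 2 called, Trf higher and Actg2 lower. The part of other cells in the values below was not tested.

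RefSeq promoter windows of GRCm38.p6, from 250 bases before to 50 bases after a gene's start, were found for 39 of the 47 members. They were searched for the E-box CACGTG, which reads the same on both strands and is bound by transcription factors of the basic helix-loop-helix class, with no other motif searched. It was present in 7 of the 39 (17.9%), namely Cd3eap, Gtf3c6, Polr2h, Polr3c, Polr3e, Polr3gl and Rrn3, against 11.8% of 11639 genes of the table with a window. The 7 genes had a median log2 fold change of 0.12 and the 32 without it one of 0.14 in the authors' deposited table, with 4 of 7 and 26 of 32 above 0. Where a gene has more than 1 annotated start, a match in any window counted. The 250 bases before the start are shown, for the outermost start with a window, for the called member Taf1d, for Polr3g and Polr3gl, which encode alternative versions of a Pol III subunit and had opposite signs, and for Gtf3c6, a Pol III factor gene with an E-box close to its start. RefSeq places the outer end of Taf1d at 15305953, so that the stretch shown for Taf1d lies before the start used in that window and inside the gene's full RefSeq span. Capitals mark CACGTG, which lies 194 bases before the start in Polr3gl and 56 bases before it in Gtf3c6.
Taf1d (chr9:15305964-15306213, plus strand): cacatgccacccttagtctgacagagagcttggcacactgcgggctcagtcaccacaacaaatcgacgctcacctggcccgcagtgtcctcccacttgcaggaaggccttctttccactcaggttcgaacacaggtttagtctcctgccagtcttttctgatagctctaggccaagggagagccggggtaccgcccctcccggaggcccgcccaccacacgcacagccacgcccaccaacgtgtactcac
Polr3g (chr13:81711014-81711263, minus strand): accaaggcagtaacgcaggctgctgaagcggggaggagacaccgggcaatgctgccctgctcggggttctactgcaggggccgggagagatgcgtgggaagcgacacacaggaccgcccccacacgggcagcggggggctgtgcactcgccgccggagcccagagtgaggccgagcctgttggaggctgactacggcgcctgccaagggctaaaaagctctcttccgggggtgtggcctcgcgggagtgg
Polr3gl (chr3:96594182-96594431, minus strand): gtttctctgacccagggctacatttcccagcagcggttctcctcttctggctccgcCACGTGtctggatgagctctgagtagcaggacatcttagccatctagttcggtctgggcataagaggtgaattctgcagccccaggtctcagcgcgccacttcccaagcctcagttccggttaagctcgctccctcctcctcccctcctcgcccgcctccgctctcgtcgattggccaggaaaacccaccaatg
Gtf3c6 (chr10:40257713-40257962, minus strand): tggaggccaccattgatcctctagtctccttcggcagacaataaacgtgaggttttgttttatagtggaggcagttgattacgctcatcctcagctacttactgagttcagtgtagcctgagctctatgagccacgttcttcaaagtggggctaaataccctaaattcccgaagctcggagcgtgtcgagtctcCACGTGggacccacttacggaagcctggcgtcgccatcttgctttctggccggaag

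As a whole the members showed small differences, mostly towards higher values in the flox samples. Of the 47, 35 (74.5%) had a log2 fold change above 0 in the authors' deposited table, against 50.1% of all genes. The median was 0.13, or 1.10-fold, against 0.00071 for all genes. Among 9284 protein-coding genes in the members' range of mean count, 55.5% lay above 0, with a median of 0.025. The range ran from -0.34 (Polr3gl) to 0.39 (Polr3f) in the authors' deposited table. One gene, Taf1d, was called higher and 0 were called lower by the authors' DESeq2 test (2.13% of members), while 1.94% of all genes were called higher and 3.42% lower, together 5.36%. The share called higher was thus near the background, and the share of all calls below it. At an unadjusted p under 0.05, 8 members stood higher and 3 lower in the authors' deposited table, together 23.4%, against 9.15% of all genes higher and 10.5% lower, together 19.7%. Taking out Taf1d left a median of 0.13 with 34 members above 0. The members were well measured, with mean counts from 91.5 (Polr3k) to 6403 (Polr2a) and a median SE of 0.11, and had SEs at a median of 0.99 times those of genes with similar mean counts.

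**Figure D1:**
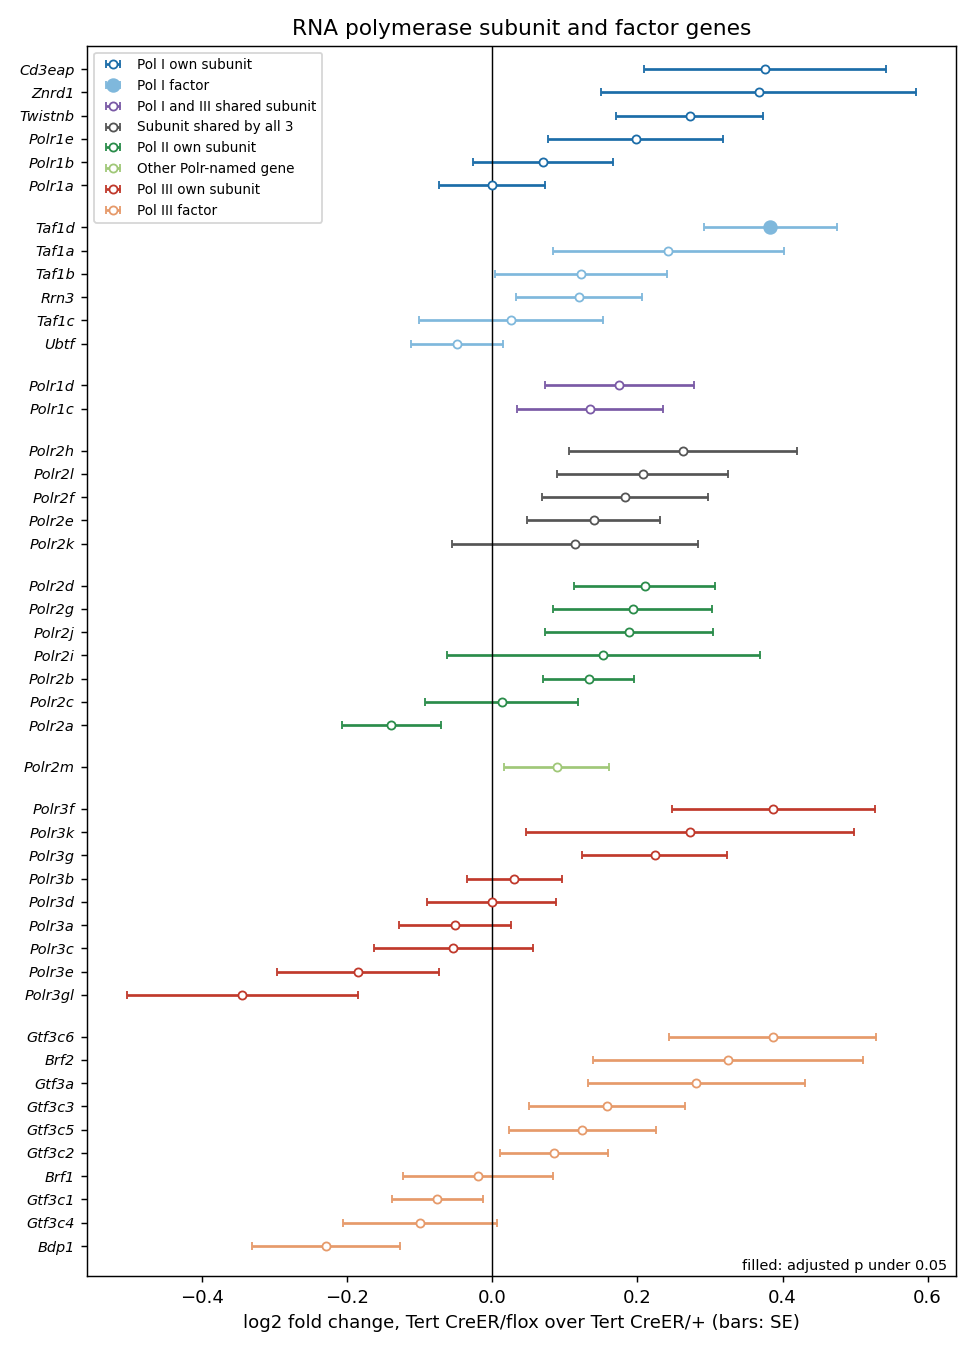
Log2 fold change of flox over CreER/+ (horizontal axis) for 46 of the 47 members, grouped and coloured by role, with bars for the SE. Taf1d, at 0.38, is the filled point and the only member past an adjusted p of 0.05, and 12 members lie below 0.

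Among the subunits of Pol I alone, the small peripheral ones had the highest values and the large catalytic ones lay near 0. The median of the 6 was 0.23 in the authors' deposited table, the highest of the classes, with 5 above 0 and none called. Cd3eap, whose product pairs with that of Polr1e as a Pol I-specific dimer, stood at 0.38 (SE 0.17, adjusted p 0.170, mean count 210) in the authors' deposited table. Polr1e itself had 0.20 (SE 0.12). Twistnb, for a subunit of the stalk of Pol I that meets the factor RRN3, had 0.27 (SE 0.10, adjusted p 0.0891, mean count 678) in the authors' deposited table. Znrd1, for the small zinc-ribbon subunit that takes part in RNA cleavage, had 0.37 (SE 0.22) at a mean count of 148. Against these, the values of the catalytic subunit genes Polr1a and Polr1b in the authors' deposited table were -0.00040 (SE 0.07) and 0.070 (SE 0.10), with mean counts of 2119 and 1047, respectively. No test compared the small subunits with the large ones.

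The Pol I factors held the single called member. Taf1d encodes a subunit of selectivity factor 1, the complex that brings Pol I to the promoter of the ribosomal RNA genes. It rose 1.30-fold in the flox samples, with a log2 value of 0.38 (SE 0.09, adjusted p 0.00319) and a mean count of 3204, in the authors' deposited table. The call of Taf1d did not hold when the authors' Wald scores were read against a t distribution with 6 degrees of freedom (adjusted p 0.439). Nor did it hold with a null as wide as the middle of all scores (adjusted p 0.433). These settings left 0 and 5 of all 14853 genes called in place of 796, so the loss is not particular to Taf1d. The call was also lost once a trend with length, GC content and mean count was removed (0.27, adjusted p 0.0794). For Taf1d that trend used the longest transcript, a retained-intron model of 4.881 kb, while the longest coding one has 1.148 kb. The other members that encode subunits of this complex were not called. Their log2 fold changes were 0.24 (SE 0.16) for Taf1a, 0.12 (SE 0.12) for Taf1b and 0.025 (SE 0.13) for Taf1c in the authors' deposited table. Rrn3, for the factor that couples Pol I to the promoter complex, stood at 0.12 (SE 0.09), and Ubtf, for the architectural protein that coats active ribosomal RNA genes, at -0.049 (SE 0.06), both in the authors' deposited table.

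Taf1d is also a host of small nucleolar RNAs (snoRNAs), short RNAs that guide the modification of ribosomal RNA. In GENCODE M21 the gene spans 10778 bases (GRCm38 chromosome 9, 15306214 to 15316991, plus strand) with 16 annotated transcripts, of which 5 are labelled coding. The coding transcripts end 5890 bases after the gene's start, and 8 snoRNA genes on the same strand lie further along, from 6338 to 10594 bases. All 8 overlap an exon of a transcript of another class, such as a retained intron, and 0 overlap an exon of a coding transcript. The SE of Taf1d was 1.30 times the median SE of genes with similar mean counts. Of the small RNA genes inside Taf1d, Gm25500 had a row of its own in the authors' deposited table, with 0.65 (SE 0.47, adjusted p 0.476) at a mean count of 19.6. How many of the reads of Taf1d come from its coding part, from the longer non-coding transcripts or from snoRNAs was not tested. The only other member with a small RNA gene inside it was Polr3c, where 1 snoRNA gene lies in an intron.

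**Figure D2:**
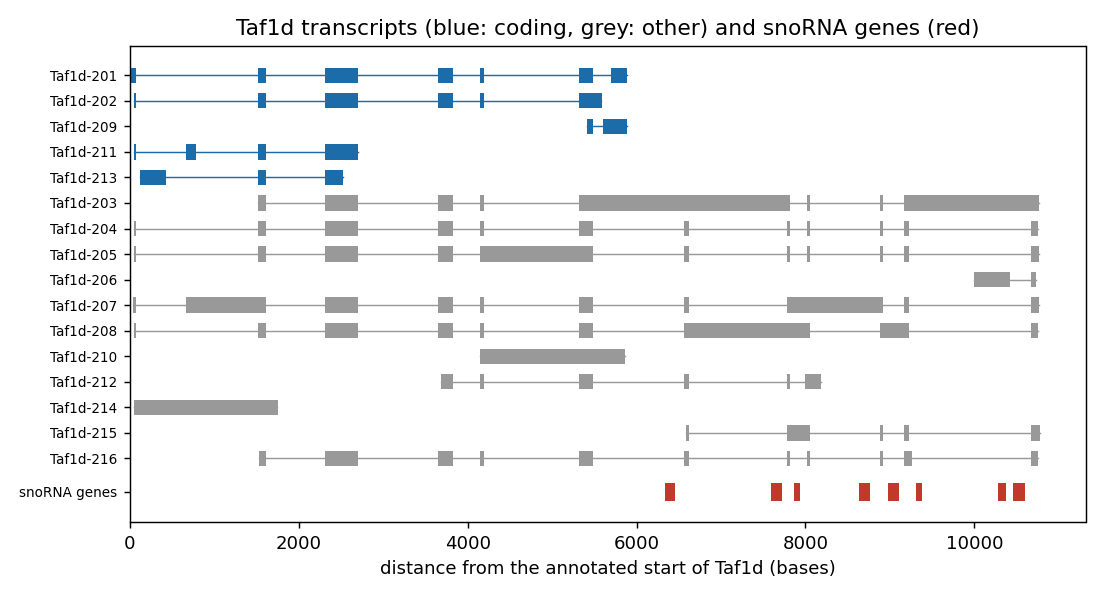
Annotated transcripts of Taf1d (one per row, blue for coding, grey for other classes, boxes for exons) and the 8 snoRNA genes (red) against distance from the gene's start in bases. The coding transcripts end at 5890 bases, before the first snoRNA gene at 6338 bases.

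The subunits that several polymerases hold in common all had positive values, and none was called. With a trend in length, GC content and mean count removed, Polr2k turned to -0.10 and the median of Polr1c and Polr1d went from 0.15 to 0.066. Polr1c and Polr1d, which encode the assembly platform of Pol I and Pol III, in the authors' deposited table stood at 0.13 (SE 0.10) and 0.18 (SE 0.10). The 5 subunits present in all polymerases had a median of 0.18 in the authors' deposited table and ranged from 0.11 for Polr2k (SE 0.17), the smallest of the transcripts at 0.601 kb, to 0.26 for Polr2h (SE 0.16). Between them lay Polr2e with 0.14 (SE 0.09), Polr2f with 0.18 (SE 0.11) and Polr2l with 0.21 (SE 0.12) in the authors' deposited table. Their smallest adjusted p was 0.324, so these values differ from 0 by less than the test requires, and neighbours among them differ by less than their SEs.

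Within Pol II, the gene of the catalytic subunit and that of its large partner had opposite signs. Polr2a, whose product carries the repeated C-terminal tail that recruits RNA processing factors, was lower at -0.14 (SE 0.07, adjusted p 0.229) at 6403 mean counts in the authors' deposited table. Polr2b, for the second largest subunit, was higher at 0.13 (SE 0.06, adjusted p 0.205, mean count 4252). Polr2d, for a subunit of the stalk that can leave the enzyme, had 0.21 (SE 0.10, adjusted p 0.194, mean count 535) in the authors' deposited table, and Polr2g, for its stalk partner, had 0.19 (SE 0.11). The platform genes Polr2c and Polr2j stood at 0.013 (SE 0.11) and 0.19 (SE 0.12), and Polr2i, for the zinc-binding subunit involved in start site choice and cleavage, at 0.15 (SE 0.22), in the authors' deposited table. Polr2m, whose product binds a part of the Pol II pool, had 0.089 (SE 0.07). None of these genes was called, and the median of the 7 subunits was 0.15, or 0.068 with the trend in length, GC content and mean count removed.

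The subunits of Pol III alone were mixed in sign. Of the 10 such genes among the members, 5 lay above 0 and 5 below, and none was called. Their median was 0.015 in the authors' deposited table and became -0.013 once a trend with length, GC content and mean count was removed. Crcp, for a further Pol III subunit, is not a member and is counted below with the assembly, import and regulator genes. It stood at -0.19 and was not called. Polr3f, for a subunit of the initiation subcomplex, had the highest log2 fold change of all members at 0.39 (SE 0.14, adjusted p 0.0779, mean count 527) in the authors' deposited table. Polr3c and Polr3g or Polr3gl encode its partners in that subcomplex, and Polr3c stood at -0.054 (SE 0.11). The subunits of the other Pol III subcomplex, Polr3d and Polr3e, had -0.0011 (SE 0.09) and -0.18 (SE 0.11, adjusted p 0.357, mean count 503) in the authors' deposited table. The catalytic genes Polr3a and Polr3b were near 0, at -0.051 (SE 0.08) and 0.030 (SE 0.07). Polr3k, for the small subunit of RNA cleavage and termination, had 0.27 (SE 0.23) in the authors' deposited table.

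Polr3g and Polr3gl encode versions of the same subunit, of which a Pol III enzyme holds one. The version made from Polr3g is known from stem and proliferating cells and that from Polr3gl from most tissues. In the authors' deposited table, Polr3g was higher at 0.22 (SE 0.10, adjusted p 0.173, mean count 906) and Polr3gl was the lowest member at -0.34 (SE 0.16, adjusted p 0.193, mean count 162). Neither was called. The difference between these log2 fold changes was 0.57, with an SE of 0.19 if their errors are independent, which the table does not show. The pair was chosen after its values were seen, so the difference is given without a p. With the trend in length, GC content and mean count removed, Polr3g stood at 0.12 and Polr3gl at -0.37. Per kb of transcript, Polr3g stood at 297 mean counts and Polr3gl at 114, a ratio of 2.61 over all libraries. Their promoter sequences, shown above, also differ in that the E-box is found for Polr3gl and not for Polr3g.

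The Pol III factors had values on both sides of 0, with 6 of 10 above it, a median of 0.10 and none called. Gtf3c6, for the smallest subunit of TFIIIC, which recognises the internal promoters of transfer RNA genes, had 0.39 (SE 0.14, adjusted p 0.0850, mean count 281) in the authors' deposited table. The larger TFIIIC genes had lower values, with 0.16 (SE 0.11) for Gtf3c3, 0.12 (SE 0.10) for Gtf3c5, 0.085 (SE 0.07) for Gtf3c2, -0.076 (SE 0.06, adjusted p 0.545, mean count 1946) for Gtf3c1 and -0.10 (SE 0.11, adjusted p 0.671, mean count 416) for Gtf3c4 in the authors' deposited table. Gtf3a, for the zinc finger factor TFIIIA that is needed at 5S ribosomal RNA genes, had 0.28 (SE 0.15). Of TFIIIB, the factor that places Pol III at the start site, Brf2 had 0.32 (SE 0.19), Brf1 -0.020 (SE 0.10) and Bdp1 -0.23 (SE 0.10, adjusted p 0.175, mean count 1283) in the authors' deposited table. Brf2 serves the promoters of genes such as U6 with upstream elements and Brf1 those with internal elements.

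Levels were compared between members as mean normalized count per kb of the longest annotated transcript, over all libraries. The large Pol II subunits stood highest, with 1026 for Polr2b and 950 for Polr2a, followed by Polr1c with 823 and Taf1d with 656. The lowest were Polr3k with 31.0 and Gtf3c4 with 58.4. The longest transcript is not a coding one, or not the longest of these, in 10 of the 47 members. For Taf1d it is a retained-intron model of 4.881 kb. Over its longest coding transcript of 1.148 kb the level was 2791, the highest of the members on that scale, where Polr3k and Gtf3c4 stayed lowest. All counts of Taf1d enter that level, and the share from its coding part was not tested. Next on the coding scale came Polr2b with 1026, Polr2e with 1017 and Polr2a with 950. The class medians that follow are again over the longest transcripts. Among the subunit classes, the median level was 586 for the pair common to Pol I and III, 383 for the subunits of Pol II alone, 255 for those common to all polymerases, 178 for those of Pol I alone and 163 for those of Pol III alone. Genes of all polymerases were thus present in these cells, and the median over all members, at 200, was above the 66.4 of all genes with a length.

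**Figure D3:**
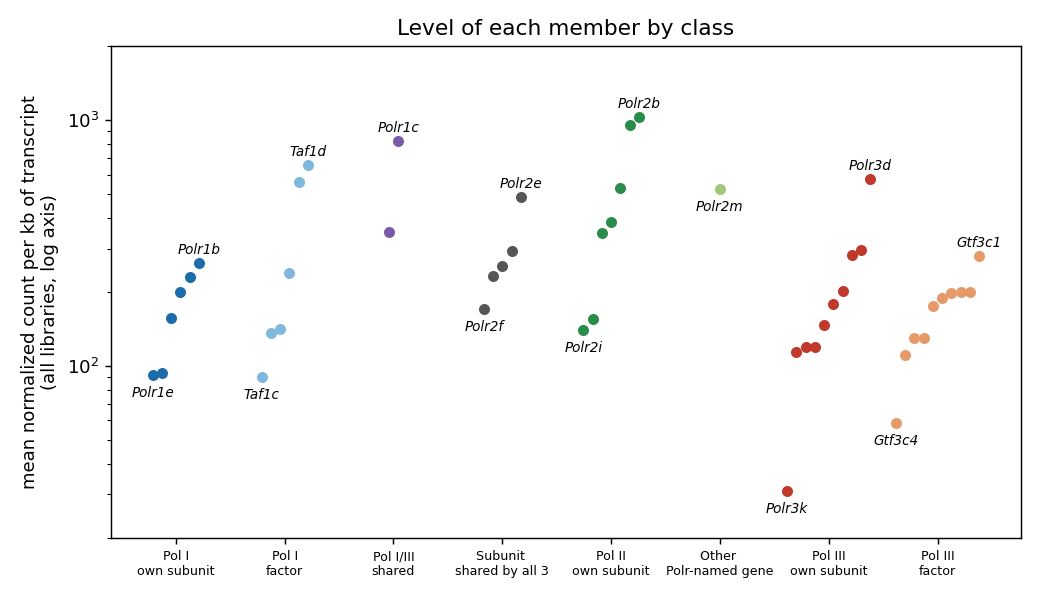
Mean normalized count per kb of the longest annotated transcript (vertical log axis) for each member by class, one point per gene, with the highest and lowest of a class named. Polr2b at 1026 is the highest and Polr3k at 31.0 the lowest.

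Across the members, shorter transcripts had higher log2 fold changes. The 24 members with a transcript of up to 2.948 kb had a median of 0.19 with 21 above 0 in the authors' deposited table, and the 23 longer ones a median of 0.030 with 14 above 0. Over the longest coding transcripts, divided at 2.542 kb, the medians and counts were the same. The 6 genes of the large catalytic subunits of the polymerases had a median of 0.015, and the 24 other subunit genes one of 0.19. Spearman's rho between length and log2 fold change was -0.43 (-0.50 over the longest coding transcripts, an alternative added after the data were seen) and Pearson's r with log2 length -0.40 over the 47 genes, which come from the same libraries and are not independent replicates. Over protein-coding genes in the members' range of mean count, the same division gave medians of 0.076 for 3353 genes up to that length (64.9% above 0) and 0.0014 for 5918 longer ones (50.2% above 0). In 12 bins of length, the medians of these genes went from 0.12 at 1.05 kb to -0.071 at 9.10 kb. Shorter genes thus stood higher among protein-coding genes of like abundance too, and the members' medians lay above theirs on both sides of the division. Over all 13712 protein-coding genes, without that limit on abundance, rho with length was -0.079 and r 0.015. Removing a trend with length, GC content and mean count, fitted over 13712 protein-coding genes, left a median of 0.072 with 36 of 47 members above 0, and Taf1d at 0.27 with an adjusted p of 0.0794. The length of Taf1d in that fit was that of its retained-intron model.

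**Figure D4:**
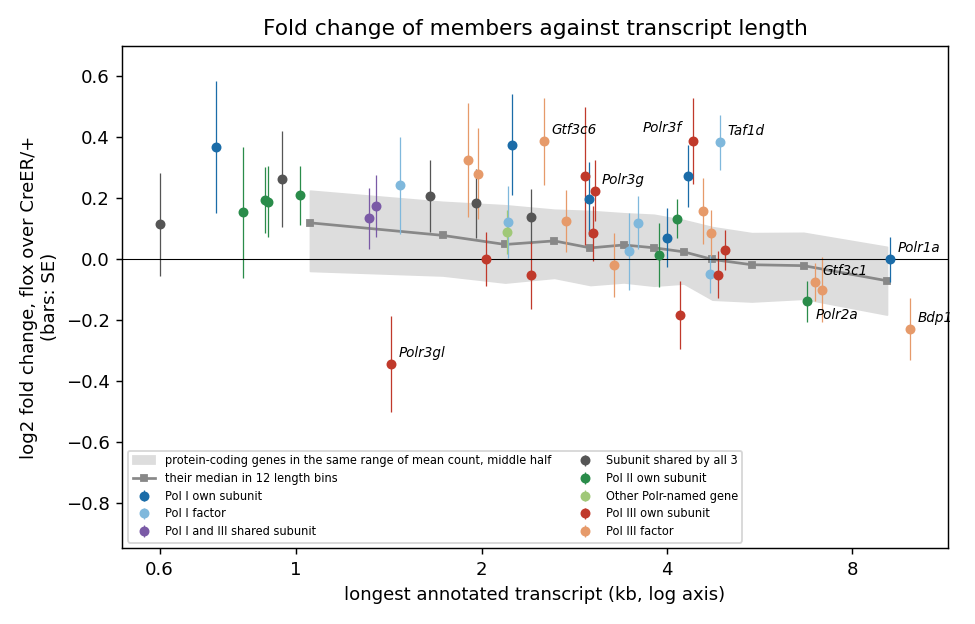
Log2 fold change (vertical axis, bars for the SE) against the longest annotated transcript in kb (log axis) for the 47 members by class. The grey line and band give the median and interquartile range of protein-coding genes with mean counts in the members' range, falling from 0.12 at 1.05 kb to -0.071 at 9.10 kb. Of the 24 shorter members 21 lie above 0, and of the 23 longer ones 14.

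Other genes of the transcription machinery were taken from lists by complex. Of 32 general transcription factors of Pol II, 24 lay above 0 with a median of 0.078, and the 2 that rose in the authors' deposited table were Ercc2, a helicase subunit of TFIIH (0.45, SE 0.10, adjusted p 0.000563, mean count 495), and Ccnh, the cyclin of its kinase (0.34, SE 0.09, adjusted p 0.0133). Of 33 genes of Mediator, the complex that links activators to Pol II, 18 lay above 0 with a median of 0.067, and in the authors' deposited table Med7 (0.36, SE 0.10, adjusted p 0.0181) and Med16 (0.39, SE 0.12, adjusted p 0.0254) were called higher. None of the 29 elongation and pausing genes was called (15 above 0, median 0.013), and the smallest p belonged to the elongation factor genes Tcea2 (-0.84, SE 0.29) and Tcea1 (0.25, SE 0.10) in the authors' deposited table. The 22 genes of the snRNA promoter complex and Integrator (17 above 0, median 0.092) had 0 called, with Ints11 at 0.20 (SE 0.10) and Snapc2 at 0.36 (SE 0.20) in the authors' deposited table. For the 19 genes of polymerase assembly, import and Pol III regulation, 12 lay above 0 with a median of 0.049, none was called, and Hsp90ab1 stood at 0.17 (SE 0.07) and Uri1 at 0.19 (SE 0.08) in the authors' deposited table. The 11 genes of mitochondrial transcription had a median of 0.13 with 9 above 0 and none called, with Tefm at 0.32 (SE 0.19) and Mterf3 at 0.29 (SE 0.20). Germ cell and paralogous versions of Pol II factors had a median of -0.0023 over 7 genes, with 3 above 0 and none called, led by Gtf2a1l (-0.46, SE 0.33) and Taf9b (0.080, SE 0.07) in the authors' deposited table. These lists hold 153 genes, of which 4 were called higher (2.61%) and 0 lower by the authors' DESeq2 test, against the shares of 1.94% and 3.42% over all genes. At an unadjusted p under 0.05, 18 stood higher (11.8%) and 3 lower (1.96%), where the shares over all genes were 9.15% and 10.5%. None of the 4 calls held with the t distribution or the wider null, which left 0 and 5 of all 14853 genes called.

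Some transcripts that Pol III makes were also in the table, since the libraries were made from total RNA. They were picked after their values were seen. Rmrp, the RNA of the RNase MRP enzyme that processes ribosomal RNA, rose 1.24-fold (0.31, SE 0.10, adjusted p 0.0475, mean count 121094) in the authors' deposited table. Rpph1, the RNA of RNase P, which trims transfer RNA precursors, was just short of the threshold at 0.26 (SE 0.09, adjusted p 0.0501, mean count 272935), and passed when the adjustment was limited to genes of at least 100 mean counts (adjusted p 0.0454), but had an adjusted p of 0.439 with the t distribution and 0.720 with the wider null. The 5S ribosomal RNA appeared as 6 rows with the same values. In each row of the authors' deposited table it stood at 1.48 (SE 0.56, adjusted p 0.0987), with 414318 mean counts, and was not called. Rn4.5s, a short rodent RNA, was called higher at 2.42 (SE 0.59, adjusted p 0.00403, mean count 8499), while the vault RNA gene Vaultrc5 (0.42, SE 0.40) and Rprl2, listed by RefSeq as an RNase P RNA (1.01, SE 0.53), were not called in the authors' deposited table. Of all 14853 genes 288 were called higher, among them 222 of the 13746 protein-coding genes. The share called higher was thus larger among the remaining genes than among protein-coding ones. The SEs of 5S and Rn4.5s were 8.23 and 8.74 times the median of the genes nearest in rank of mean count, against 1.50 for Rmrp and 1.24 for Rpph1. Rmrp, Rpph1 and 5S have mean counts above the 55932 of the highest protein-coding gene, so their ratios may rest on genes of lower abundance. With the t distribution, which left 0 of all genes called, the adjusted p of both Rmrp and Rn4.5s was 0.439. All of these values were positive, but the transcripts were picked with their values known, so no weight is placed on the shared sign. Rnu11 (1.12, SE 0.49) and Rnu12 (0.92, SE 0.43), small nuclear RNAs made by Pol II, were also positive. Their SEs were 6.02 and 5.42 times those of like genes, and neither was called.

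**Figure D5:**
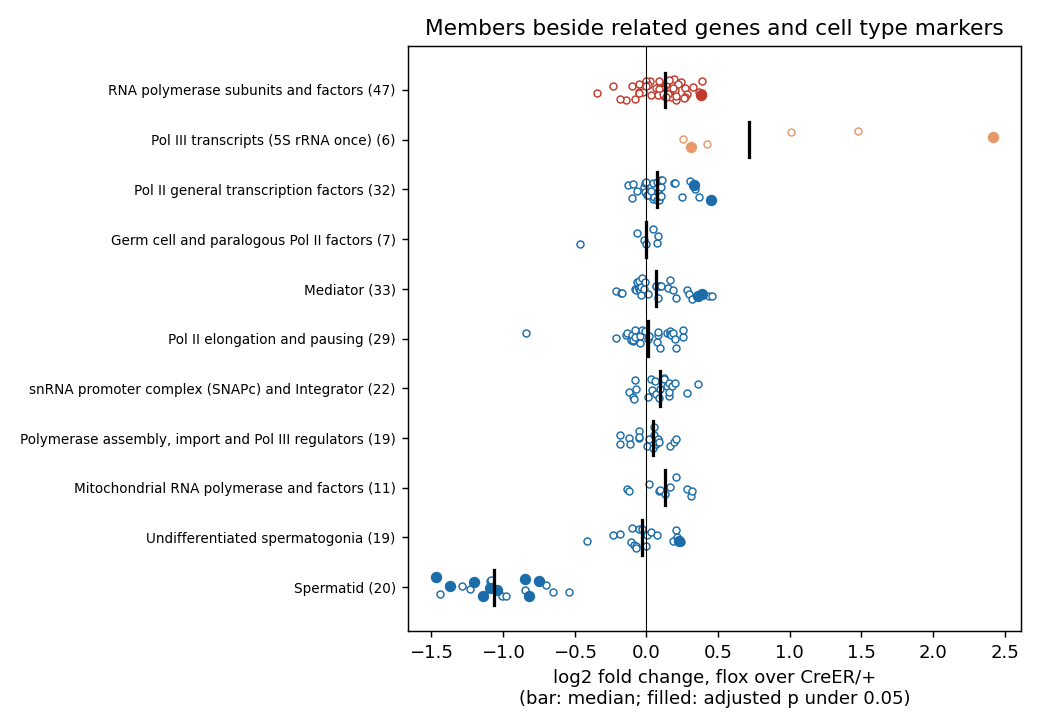
Log2 fold change of flox over CreER/+ (horizontal axis) for the members, the Pol III transcripts with 5S once, the related lists and 2 marker lists, one point per gene, with a bar for the median and filled points for an adjusted p under 0.05. The members' median is 0.13, spermatid markers lie between -1.47 and -0.54, and Rn4.5s at 2.42 lies furthest to the right. The Pol III transcripts were picked after their values were seen.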

How the data were processed

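Total RNA of 8 samples in 2 groups of 4 was sequenced after a stranded low-input kit, per the labels' protocols. Tools named by the submitters' processing notes are DESeq2, Bowtie, Bowtie2 2.0.0-6, TopHat2 2.0.4 and Trim Galore, and the builds are mm10 and GRCm38. Not given in the sources used here are the read counter, its strand setting and the annotation. As the abundance signal, the authors deposited a mean normalized count over all libraries. The deposited log2 fold changes and SEs, the Wald score and the p-values were used as they stand, since the deposited p-values matched a normal distribution of the score to within 0.424% and the adjusted ones a Benjamini-Hochberg adjustment over 14853 rows to within 0.426%. Nothing in the sources used here says whether samples of a group came from separate animals, so the p-values measure only the spread between these samples. Total counts per library were not used here, and precision is given by the SEs.

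Members, their roles and the related lists were chosen with earlier results of these data known. All members are named but 1, which is not reported here by name. Full statistics are given for those at an unadjusted p under 0.05 and the 6 lowest. In each related list the called genes are named (where over 6, those 6 of smallest p), or else the 2 of smallest p, and of cell type markers the called genes. Crcp is named besides these. No list test was run. All 47 members matched RefSeq of GRCm38.p6. Lengths and GC content came from the longest GENCODE M21 transcript, found for all members. The SE of a gene was compared with the median of the 201 genes nearest in rank of mean count, with the window cut short at the ends of the range. Alternatives were other thresholds, adjustments, distributions of the score, centring, trend removal and member sets. Counting identical rows once, leaving out Taf1d and the longest coding transcript were added after the data were seen. The steps were tested on simulated data. The tools were scipy 1.17.1, matplotlib 3.10.9, pandas 2.3.3 and numpy 2.4.6 under Python 3.11.15.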

Additional observations from a re-analysis of the deposited data

How the results depend on the processing

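The members' median log2 fold change stayed positive, from 0.072 to 0.13, and the number above 0 stayed between 34 and 36 under the settings run, where the lowest median came with the trend in length, GC content and mean count removed. The 34 arose only where members were left out, and the 36 with the trend removed. Matching by RefSeq symbol and counting identical rows once kept the same members, so these settings could not change either value. A mean of the members weighted by 1/SE squared was 0.075. The number of members called higher, 1 as reported, was 4 at an adjusted p under 0.1 and 0 with that trend removed, with a t distribution of 6 degrees of freedom or with the null SD taken from the middle of the scores, which was 1.45 times that of a standard normal distribution. At an adjusted p under 0.1, 554 of all 14853 genes were called higher and 786 lower, in place of 288 and 508. With the trend removed, 394 of 13712 protein-coding genes were called in place of 706, and over all genes the t distribution and the wider null left 0 and 5 calls in place of 796. With the t distribution, 4 members and 1652 genes had an unadjusted p under 0.05. The adjusted p of Taf1d ranged from 0.00257 to 0.439 over the settings. The related transcription genes called higher, 4 as reported, were 1 at an adjusted p under 0.01, 7 at 0.1, 0 with the t distribution and with the wider null, and 2 with the trend removed, and those called lower were 1 at 0.1 and otherwise 0. Over all genes, 86 were called higher at 0.01 and 554 at 0.1. With the trend removed, 85 of 13712 protein-coding genes were called higher. Rpph1 had an adjusted p of 0.439 with the t distribution and 0.720 with the wider null. Rmrp lost its call at 0.01, with the t distribution (adjusted p 0.439) and with the wider null (0.714), and Rn4.5s with the latter pair (0.439 and 0.452). With the trend removed Polr2m became 0.0044, and the values of 3 members changed sign, to -0.10 for Polr2k, 0.077 for Polr1a and 0.0043 for Gtf3c1. The cause of these changes was not tested. No paired analysis was possible because the table holds no values per sample, and for the same reason no replicate was left out. At a median SE of 0.11, a difference of the size of the members' median (0.13) could not be called for a single gene.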

Other observations

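Among the members, those with higher mean counts had lower log2 fold changes (Spearman's rho -0.41, Pearson's r with the log2 count -0.32 over 47 genes), while over 13712 protein-coding genes the relation had the opposite sign (rho 0.21, r 0.23). The latter include genes outside the members' range of mean count, and the relation within that range was not examined. The shorter members also had lower mean counts, with a median of 323 against 864, and the relations with length and count were not separated. Genes within a table are not independent replicates, so these are descriptions. With GC content, both the members (rho -0.18) and the protein-coding genes (rho -0.17) had a slightly negative relation.

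Of the members, 14 overlap another gene of the table in GENCODE M21, and 0 of these neighbours were called. Besides the snoRNA gene Gm25500 in Taf1d, these neighbours are protein-coding and lie on the opposite strand. Among them, the lowest in the authors' deposited table were Dnaaf1, beside Taf1c (-0.74, SE 0.28, adjusted p 0.0901), and 1700088E04Rik, beside Polr2f (-0.59, SE 0.25, adjusted p 0.146). Taf1c and Polr2f themselves stood at 0.025 and 0.18. Reads of overlapping genes can be told apart only where strand was used in counting, which the sources used here do not state.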
